A study of Mus musculus with 6 samples.

Results

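The genes described here are 4 that encode forkhead transcription factors, Foxc1, Foxd1, Foxd2 and Foxl2, together with Foxl2os, a non-coding gene on the opposite strand beside Foxl2. They were taken by symbol from the authors' deposited significance table, which gave 6 probe sets for the 5 genes, out of 928 probe sets with 1 symbol for 842 genes. Foxd1 had 2 probe sets, numbered 1 and 2 here with the brighter first, and the other genes had 1 each. The genes had been picked because their intensity was higher in the mutants on these same arrays, so their differences between genotypes are given as a description. The authors' p-values and the calls of the fit over all probe sets are printed beside them and support nothing about the members.

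Forkhead proteins bind DNA through a winged-helix domain, and several act in the mesenchyme of the embryonic head. Foxd1 and Foxd2 are expressed in facial mesenchyme, where both are known to respond to Hedgehog signalling. Foxc1 is needed for the periocular mesenchyme and the skull, and human FOXC1 mutations cause Axenfeld-Rieger syndrome. Foxl2 is best known from the eyelids and the ovary, and human FOXL2 mutations cause blepharophimosis syndrome.

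The tissue was maxillary arch mesenchyme of mouse embryos at embryonic day 10.5, cut by laser from the region where Lhx6 and Lhx8 are normally expressed, so the same anatomical territory was sampled whether or not the genes were present. There were 3 arrays from wild-type embryos and 3 from Lhx6-/-; Lhx8-/- embryos, called double mutants here. All embryos were female and of a mixed C57BL/6J, 129 and CD-1 background. Neither group carried another allele or treatment in the labels, and each array came from 1 embryo. The question was which genes depend on these LIM-homeodomain factors.

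The starts of the genes are shown because the members were higher together and because Foxl2 and Foxl2os begin close to each other. All 5 members were found in RefSeq on GRCm38.p6, each with a window of 300 bases, 250 before the start of the gene and 50 from the start on. Foxc1 lies on chromosome 13 (chr13:31806396-31806695, plus strand), Foxd1 also on chromosome 13 (chr13:98353995-98354294, plus strand), Foxd2 on chromosome 4 (chr4:114908849-114909148, minus strand) and Foxl2 on chromosome 9 (chr9:98955357-98955656, plus strand). The sequences run 5′ to 3′ on the strand of the gene. In Foxc1 and Foxd1 the capitals mark the CCAAT and TATAA letters found on either strand, Foxd2 held neither, and in Foxl2 the capitals mark the 204 bases shared with the window of Foxl2os.
Foxc1: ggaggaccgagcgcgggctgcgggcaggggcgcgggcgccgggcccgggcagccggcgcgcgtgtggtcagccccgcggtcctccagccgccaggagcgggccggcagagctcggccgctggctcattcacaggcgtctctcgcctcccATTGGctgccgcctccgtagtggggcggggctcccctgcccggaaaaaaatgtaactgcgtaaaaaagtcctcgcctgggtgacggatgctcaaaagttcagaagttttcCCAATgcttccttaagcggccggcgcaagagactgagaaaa
Foxd1: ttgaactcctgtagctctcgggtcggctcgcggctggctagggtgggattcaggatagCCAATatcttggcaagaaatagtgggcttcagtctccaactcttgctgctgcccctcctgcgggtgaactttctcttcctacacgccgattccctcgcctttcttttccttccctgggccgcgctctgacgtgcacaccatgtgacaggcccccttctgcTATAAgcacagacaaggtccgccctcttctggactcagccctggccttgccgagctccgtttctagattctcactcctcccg
Foxd2: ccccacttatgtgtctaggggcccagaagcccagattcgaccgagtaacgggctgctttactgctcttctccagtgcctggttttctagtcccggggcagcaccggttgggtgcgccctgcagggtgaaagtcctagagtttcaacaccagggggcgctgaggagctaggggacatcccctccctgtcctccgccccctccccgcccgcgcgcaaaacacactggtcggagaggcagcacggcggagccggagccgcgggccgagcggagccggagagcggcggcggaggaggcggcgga
Foxl2: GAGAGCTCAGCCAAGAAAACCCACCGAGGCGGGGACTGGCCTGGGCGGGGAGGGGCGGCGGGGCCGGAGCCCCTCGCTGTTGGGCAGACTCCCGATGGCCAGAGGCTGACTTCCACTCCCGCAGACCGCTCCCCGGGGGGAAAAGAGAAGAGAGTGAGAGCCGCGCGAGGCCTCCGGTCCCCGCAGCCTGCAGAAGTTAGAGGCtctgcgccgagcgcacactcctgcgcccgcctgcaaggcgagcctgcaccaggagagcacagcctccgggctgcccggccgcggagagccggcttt

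Foxl2os begins on the minus strand 297 bases from the start of Foxl2 and points away from it (chr9:98955261-98955560). The Foxd1 window held TATAA with its first base at -32 and CCAAT at -192, counted from the first base of the gene. The Foxc1 window held CCAAT at 10 on the plus strand and on the minus strand at -101. Over all 32851 RefSeq windows of this length, 24.9% held TATAA and 37.4% held CCAAT on either strand. TAATTA, a core bound by LIM-homeodomain proteins, was in 0 of the 5 windows and in 5.29% of all. GTAAACA, a forkhead site, was in 0 of 5 and in 3.65% of all, and GACCACCCA, a GLI site, was in 0 of 5 and in 0.253% of all. These matches describe letters in short windows and say nothing of binding.

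The files hold intensities in 2 forms, both linear and in arbitrary units. The authors' deposited table gives intensities for its 1061 selected probe sets, 645 of them (1.43% of all probe sets) listed as higher and 416 as lower, at an unpaired, uncorrected p of 0.05 and a fold of 1.25. The value table gives all 45037 probe sets that are not controls, on a different scale. The array labelled double mutant 1 stood apart from the others: the 3′ control probe set of Actb was 24.8 times as bright there as the 5′ one and that of Gapdh 17.8 times, against at most 1.85 and 1.60 times elsewhere, and its log2 intensities correlated with the others at 0.606 to 0.679 across probe sets. The members' differences are therefore also given without it. Lhx8 intensities in the deposited table were 8628, 8976 and 9493 in wild type and 5177, 2711 and 3177 in the double mutants, so signal remained. In the value table they were 2063.3, 1991.6 and 2240.5 in wild type and 2036, 699.3 and 910.5 in double mutants 1, 2 and 4. There the array labelled double mutant 1 lay within the wild-type range. No listed probe set carried the name Lhx6. In a bulk sample, fewer cells of a type and less RNA per cell cannot be told apart.

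Foxd1, a facial and kidney stroma factor, had the largest difference of the members on all 6 arrays, a place it lost to Foxd2 without the array labelled double mutant 1. Its probe set 1 had deposited intensities of 139.5, 121 and 159 in wild type, and 1078, 567 and 522 in double mutants 1, 2 and 4. Every double-mutant array lay above every wild-type array, and the lowest double mutant was 3.29 times the highest wild type. The means were 139.6 ± 18.8 and 722 ± 309 (SD, n = 3). The authors' deposited table gave a fold of 4.92 with p = 0.00276 by their uncorrected test. In the value table the wild-type arrays held 45.4, 39.5 and 70.5, and the double mutants 570.9, 210.3 and 226. Double mutant 1 was the highest in both tables, at 0.99 above the mean of the other double mutants on the log2 scale of the deposited intensities and 1.33 above it in the value table. Without it the fold in the deposited intensities was 3.92.

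Probe set 2 of Foxd1 was dim but gave the same direction. Its deposited intensities were 16.8, 18.8 and 17.0 in wild type and 73.0, 62.4 and 35.2 in double mutants 1, 2 and 4. The wild-type arrays lay close together and every double mutant above them. The fold was 3.10 with p = 0.00731 in the authors' deposited table. In the value table wild type was close to 0, at 0.7, 1.2 and 0.7, and the double mutants held 19.1, 27.7 and 17.4. The mean stayed under 100 in both groups in either table, so this probe set did not enter the fit. Here the array labelled double mutant 1 was the highest in the deposited table and the middle one in the value table, and without it the fold in the deposited intensities was 2.67. Both Foxd1 probe sets carry the same alignment in the file, chromosome 13 from 99124196 to 99127464. The build of the file's alignments is not stated in the sources used.

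Foxd2, the close relative of Foxd1, was also higher, but double mutant 1 held the opposite place among the double mutants. The deposited intensities were 232.6, 172 and 155 in wild type and 408, 854 and 729 in double mutants 1, 2 and 4. The groups did not overlap, and the array labelled double mutant 1 was the lowest of its group, where for Foxd1 it was the highest. The means were 187 ± 40.7 and 664 ± 229.7 (SD, n = 3). The fold was 3.44 with p = 0.00833 in the authors' deposited table. The value table held 81.9, 54.2 and 58.4 in wild type and 192.0, 265 and 309.8 in the double mutants, the same array again being lowest. Leaving it out moved the log2 difference of Foxd2 from 1.78 to 2.10 in the deposited intensities and that of Foxd1 probe set 1 from 2.30 to 1.97. The file aligns the Foxd2 probe set to chromosome 4 from 114578896 to 114579402.

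Foxc1, the periocular and skull factor, had deposited intensities of 66.3, 135 and 71.7 in wild type and 419, 484 and 253 in double mutants 1, 2 and 4. Wild type 4 stood above its own group, and the groups still did not overlap. The means were 91.0 ± 38.3 and 385 ± 119 (SD, n = 3). The fold was 4.31 with p = 0.00818 in the authors' deposited table. In the value table wild type held 23.3, 44.6 and 18.4, and the double mutants 121.0, 130.7 and 77.7. Wild type 4 was the highest of its group and double mutant 4 the lowest in both tables. Of the members, Foxc1 had the widest spread among wild-type arrays, with an SD of 0.56 on the log2 scale of the deposited intensities. The array labelled double mutant 1 was the middle one of its group in both tables, and without it the fold was 4.05. The file aligns the probe set to chromosome 13 from 31898514 to 31902512.

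Foxl2 had the smallest difference of the members in the deposited intensities, and was the closest to the limits of that table. Its deposited intensities were 55.1, 52.4 and 45.5 in wild type and 59.7, 65.5 and 73.3 in double mutants 1, 2 and 4. The groups did not overlap, but the lowest double mutant was only 1.08 times the highest wild type. The fold was 1.30 against the limit of 1.25, and p was 0.0351 against the limit of 0.05, in the authors' deposited table. Probe sets just outside those limits carry no name in the files used. In the value table wild type held 11.2, 5.4 and 6.7, and the double mutants 13.5, 24.7 and 20.6. Both groups were dim, with means under 100 in either table, and double mutant 1 was the lowest of its group in both. Without it the fold was 1.36 in the deposited intensities.

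Foxl2os, the non-coding neighbour, had a larger difference than Foxl2 in the deposited intensities, but in the value table the order turned with the constant added before log2. With 16 the log2 differences there were 1.12 for Foxl2os and 0.58 for Foxl2, and with 1 they were 1.18 and 1.25. Its deposited intensities were 516, 653 and 600.3 in wild type and 2359, 1378 and 1203 in double mutants 1, 2 and 4. The lowest double mutant was 1.84 times the highest wild type. The means were 589.7 ± 69.1 and 1647 ± 623 (SD, n = 3). The fold was 2.68 with p = 0.0104 in the authors' deposited table. In the value table wild type held 185, 237 and 210.3, and the double mutants 445, 521 and 466, with means of 211 ± 26.1 and 477 ± 39.1 (SD, n = 3).

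The tables differed on Foxl2os in 1 array. The array labelled double mutant 1 was the highest of its group in the deposited table and the lowest in the value table. Its deposited intensity was 5.30 times its value-table intensity, against 2.58 to 2.85 times on the 4 other arrays known to be in both tables. Without that array the fold of Foxl2os was 2.19 in the deposited intensities and 2.25 in the value table, on the log2(value + 16) scale, so the tables then lay close together. The file aligns the Foxl2 probe set to the plus strand of chromosome 9 from 98855838 to 98856746. It aligns the Foxl2os probe set to the minus strand from 98849573 to 98850273, with a figure of 33.14 after the alignment where the other members have 88.62 to 100.0. The headers do not explain this figure, so which transcript the probe set reads was not settled here. The log2 differences of the pair in the deposited intensities were 0.38 ± 0.12 for Foxl2 and 1.42 ± 0.31 for Foxl2os (SE, n = 3).

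**Figure D1:**
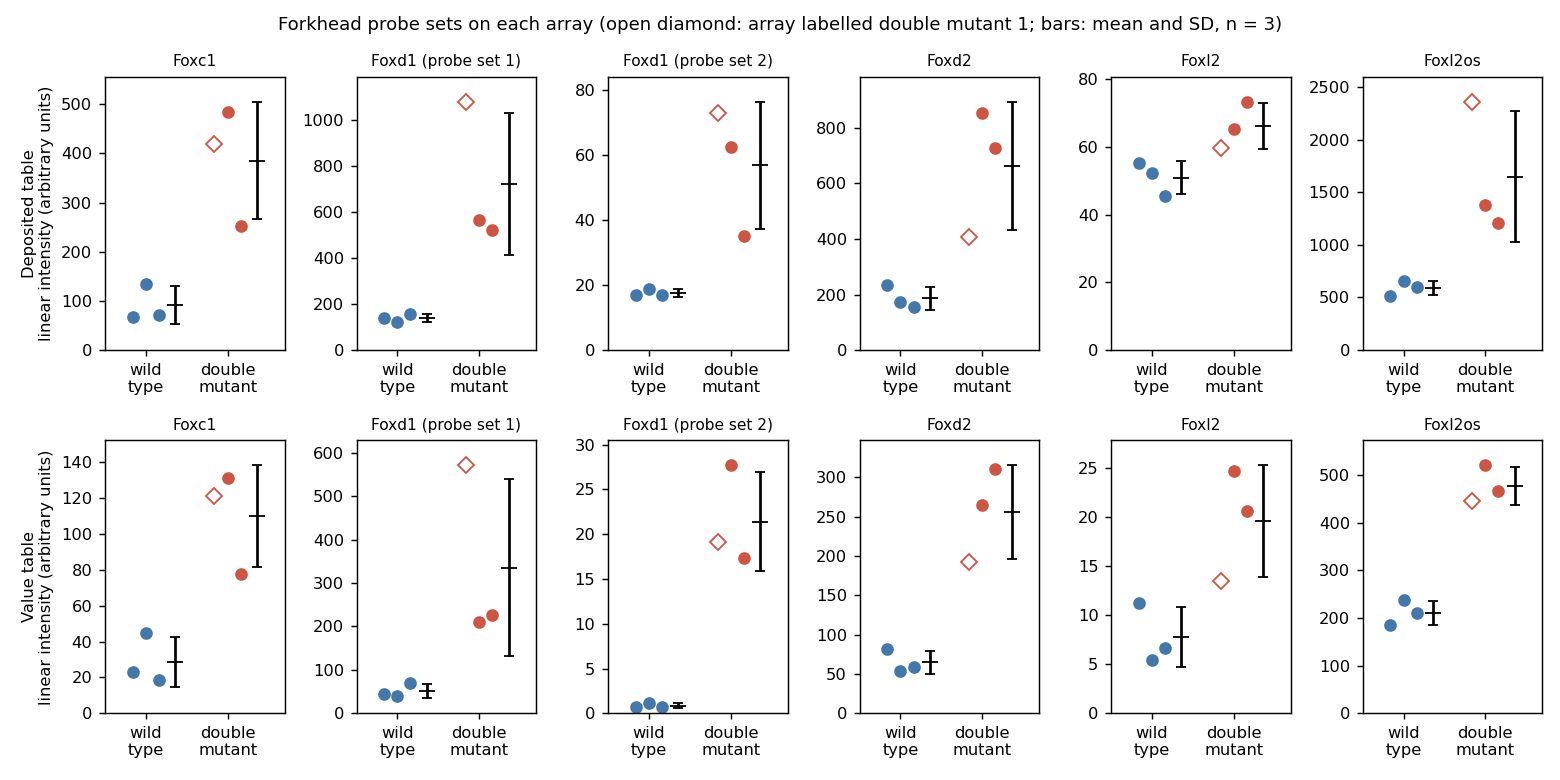
Linear intensity (arbitrary units, axes from 0) of each forkhead probe set on each array, in the deposited table (top) and the value table (bottom), with wild type in blue, double mutants in red, the array labelled double mutant 1 as an open diamond, and the mean ± SD of 3 arrays as bars. In all 12 panels the double-mutant arrays lie above the wild-type arrays, and the diamond is highest for Foxd1 probe set 1 and lowest for Foxd2 in both tables.

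Across the members, all 6 probe sets had every double-mutant array above every wild-type array, in both tables alike. Among the 45037 probe sets of the value table the share that did so was 6.72%. Among the 1061 of the deposited table it was 60.8%, which is as many as are listed as higher. Nothing is read from these counts, since the members were picked on this contrast. Leaving out the array labelled double mutant 1 cannot undo such a separation. The value table therefore gave 6 of 6 without it too, against 12.7% of its probe sets overall.

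In size, 5 of the 6 probe sets had a fold over 2 in the authors' deposited table, where 6.69% of the listed probe sets were higher by that much. The exception was Foxl2. With double mutant 1 left out there were again 5, against 5.75% of the listed probe sets. On the log2(value + 16) scale of the value table the same 5 had a difference over 1, against 0.524% of all probe sets. With 64 added instead of 16, Foxc1, Foxl2os and Foxd1 probe set 2 fell under 1, at 0.90, 0.98 and 0.39. With 16 the median log2 difference of the 6 was 1.32, and that of all probe sets was 0.04. Foxd1 probe set 1 had the 4th highest difference of the 45037, Foxd2 the 15th, Foxc1 the 29th and Foxl2os the 133rd. The dim Foxd1 probe set 2 and Foxl2 are not ranked, since the added constant sets their differences. The ranks given are for 16. The differences of Foxc1, Foxd2 and Foxl2os moved with the constant too, that of Foxd2 from 1.74 to 1.30 with 64. By the series' own criteria, a fold over 1.5 and a mean over 100 in either group as well as the p of 0.05, 4 probe sets counted, 1 each of Foxc1, Foxd1, Foxd2 and Foxl2os, where 10.7% of the listed probe sets were higher and met them.

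**Figure D2:**
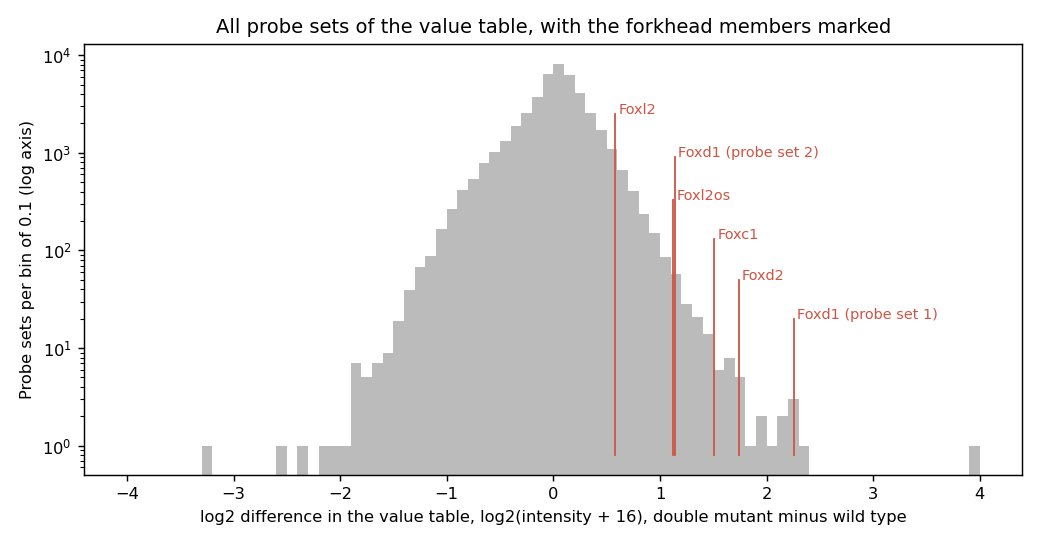
Number of probe sets (log axis) by log2 difference, double mutant minus wild type, in the value table, with the forkhead probe sets marked by red lines whose heights only place the names. Foxd1 probe set 1, at 2.26, stands at the far right of the 45037 probe sets, and Foxl2, at 0.58, in the shoulder of the distribution.

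In the fit over the whole value table, 0 of 14446 probe sets with a mean over 100 in either group passed an adjusted p of 0.05 by limma with Benjamini-Hochberg adjustment, which is 0%, and 245 had an unadjusted p under 0.05. Foxc1, Foxd1 probe set 1, Foxd2 and Foxl2os were among those tested and 0 of these 4 passed. Their log2 differences with SE from the group spreads were 1.51 ± 0.32 for Foxc1, 2.26 ± 0.48 for Foxd1 probe set 1, 1.74 ± 0.24 for Foxd2 and 1.12 ± 0.12 for Foxl2os (n = 3). Foxc1, Foxd1 probe set 1 and Foxd2 entered the fit only through the double mutants, at wild-type means of 28.8, 51.8 and 64.8. Without the array labelled double mutant 1, 9 of 13904 passed, or 0.0647%, and Foxd2 was the 1 member among them. Its log2 difference was then 1.92, against 1.81 for Foxd1 probe set 1, 1.43 for Foxc1 and 1.17 for Foxl2os.

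**Figure D3:**
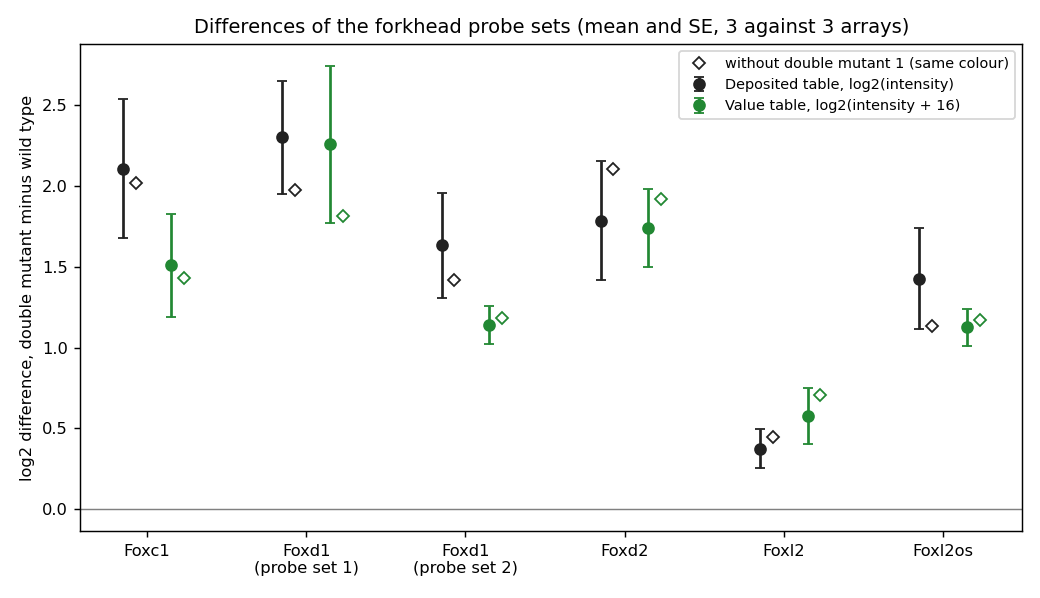
Log2 difference between double mutants and wild type for each forkhead probe set, in the deposited intensities (black) and the value table (green), with SE over 3 against 3 arrays and the value without the array labelled double mutant 1 as an open diamond. Every value lies above 0, and leaving that array out raises Foxd2 and Foxl2 and lowers Foxc1 and Foxd1 probe set 1 in both tables.

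The order of the differences in the deposited intensities ran from Foxd1 probe set 1 at 2.30 ± 0.35, through Foxc1 at 2.11 ± 0.43, Foxd2 at 1.78 ± 0.37, Foxd1 probe set 2 at 1.63 ± 0.32 and Foxl2os at 1.42 ± 0.31, to Foxl2 at 0.38 ± 0.12 (log2, SE, n = 3). Neighbours down to Foxl2os lay within 1 SE of each other, and Foxl2 lay apart from all of them. With double mutant 1 left out the order began with Foxd2 at 2.10, Foxc1 at 2.02 and Foxd1 probe set 1 at 1.97. Among double mutants the SD on the log2 scale was 0.49 to 0.57 for all probe sets but Foxl2, at 0.15. Among wild-type arrays it was 0.09 to 0.56.

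Besides the members, which were picked for being higher, 3 other forkhead genes were listed, Foxd3, Foxp1 and Foxp2, and these were higher as well. This makes 7 of the 44 protein-coding Fox genes in RefSeq, where 2.36% of all probe sets were listed and 645 of those 1061 as higher. A share of genes and a share of probe sets cannot be compared, since a gene can have several probe sets. Foxd3, a regulator of early neural crest, had a fold of 1.61 at intensities of 10.3 ± 0.25 and 16.9 ± 3.56 (SD, n = 3) in the authors' deposited table. Foxp2, a forkhead repressor gene, gave 894, 667 and 595 in wild type and 4055, 2187 and 1910.4 in double mutants 1, 2 and 4 for its brighter probe set. Foxp1 had 5 listed probe sets, with folds of 1.75 to 2.84 in the authors' deposited table. The other Fox genes, Foxf1, Foxf2 and Foxc2 among them, were not among the listed names, and their level was not analysed here.

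Genes of the Hedgehog pathway, to which facial Foxd1 and Foxd2 are known to respond, were otherwise absent from the listed names. Of 26 genes in the Hedgehog list, 2 were listed, and these were Foxd1 and Foxd2 themselves. The receptor gene Ptch1 and the transducer gene Gli1, the usual readouts of the pathway, were not named in the files used. Of 20 genes of the periocular mesenchyme, 4 were listed: Foxc1, Foxl2 and Eya2 were higher and Eya1 lower. Eya2, which encodes a transcriptional coactivator, had 48.3, 47.4 and 36.7 in wild type and 67.6, 138 and 158 in double mutants 1, 2 and 4 in the deposited table. Its related gene Eya1 had 2805, 3002 and 2988 against 1493, 2201 and 2248. For both genes the groups did not overlap. Nothing is read from this, since the listed probe sets had been selected on this same contrast. The array labelled double mutant 1 was the lowest double mutant for both. These lists were chosen with results of these data known, and a gene not listed was not analysed here.

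Markers of other cell types were also listed as higher. Over all probe sets 1.43% were listed as higher, though a share of genes and a share of probe sets cannot be compared. The sums below hold listed genes alone. These had been selected on this same contrast, so nothing is read from the separation of the sums. Of 7 glial crest genes, 4 were listed, Sox10, Erbb3, Ngfr and Foxd3, all of them higher, and their summed deposited intensity was 259 to 286 in wild type and 506 to 633 in the double mutants, lowest on the array labelled double mutant 1. Of 8 genes of pericytes and mural cells, Pdgfrb and Tagln were listed as higher, with sums of 1935 to 2175 and 2729 to 3140.2. Most of the sum was Pdgfrb, at 1868 to 2096 in wild type, where Tagln held 67.1 to 79.4. Of 8 muscle precursor genes, the dim Pax7 and Msc were listed as higher, with sums of 49.3 to 56.9 and 63.0 to 77.6. In the value table the groups overlapped for Tagln, Pax7 and Msc, at log2 differences of 0.11, 0.05 and 0.21. They did not overlap for Pdgfrb or the 4 listed glial crest genes. Of 18 genes of cranial crest mesenchyme, Msx1, Lhx8 and Barx1 were listed, all lower. Lhx8 is one of the deleted genes, and without it the sums were 4806 to 5680.1 in wild type and 2817 to 3634 in the double mutants. Of the markers of endothelium, surface epithelium, neurons and blood, 0 were listed. None of the listed markers was at 0 in the deposited table, but some were near 0 in wild type in the value table. There the wild-type arrays held 0.4, 0.5 and 0.8 for Sox10, 1.9, 0.8 and 0.4 for Foxd3, and 0.6, 2 and 0.4 for Pax7. Their part in the forkhead differences was not tested.

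The named genes nearest to each member in their deposited pattern were found by the root-mean-square difference of log2 intensities over the 6 arrays, each probe set centred on its own mean, among 841 other named genes. Since every candidate had been selected on the genotype difference, nearness is a description. Several of these places rest on the array labelled double mutant 1. For Foxd1 probe set 1 the nearest were Npnt, the gene of the matrix protein nephronectin, at 0.30, Foxp2 at 0.32 and Egfr, the gene of the EGF receptor, at 0.35. Npnt was also the nearest to Foxd1 probe set 2, at 0.18, followed by 9430085L16Rik at 0.19 and the Notch ligand gene Jag1 at 0.22. Npnt gave 193, 173 and 166 in wild type and 943, 701 and 445 in double mutants 1, 2 and 4, so it was highest where Foxd1 was highest. Without that array Npnt was the 4th nearest to Foxd1 probe set 1, Foxp2 the 9th and Egfr the 11th, and the nearest were 1300014I06Rik at 0.22, Bmp5 at 0.23 and Foxd2 at 0.26. For probe set 2 they were then Meox2, a homeobox gene, at 0.11, Npnt at 0.16 and the potassium channel gene Kcnd3 at 0.18. In the value table the groups overlapped for 9430085L16Rik, where wild type reached 4.4 and double mutant 4 held 1.5.

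Foxc1 had no close match: its nearest genes, Npnt, the protein kinase gene Prkg2 and Dleu7, all lay at 0.41, while Foxd1 probe set 2 lay at 0.38. In Foxc1 wild type 4 was the highest wild-type array, which it was in none of these 3 genes. Without double mutant 1 the nearest were Lin7a at 0.37, Gata3 at 0.37 and Dleu7 at 0.38. Foxd2 was nearest to Bmp5, a BMP ligand gene, at 0.17, to Adra2a, an adrenergic receptor gene, at 0.20, and to Gucy1a3, a guanylate cyclase subunit gene, at 0.27. Bmp5 gave 28.8, 27.6 and 23.2 in wild type and 56.1, 100.1 and 85.4 in double mutants 1, 2 and 4, with the same array lowest among the double mutants as for Foxd2. Without that array Bmp5 and Adra2a were still the nearest, at 0.19 and 0.22, followed by Dleu7 at 0.24. Foxd2 and Foxd1 probe set 1 lay at 0.73 from each other over the 6 arrays and at 0.26 without double mutant 1.

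Foxl2os was nearest to Sdk2, which encodes a cell adhesion protein, at 0.18, to the glial crest gene Sox10 at 0.18 and to Ppp1r3b, the gene of a phosphatase subunit, at 0.19. Sox10 gave 19.5, 20.2 and 21.3 in wild type and 95.7, 38.7 and 45.4 in the double mutants, highest on the array labelled double mutant 1 as Foxl2os was in that table. Without that array Sdk2 was the 4th nearest, Sox10 the 5th and Ppp1r3b the 10th, behind the nuclear receptor gene Nr4a2 at 0.06, the glial crest gene Ngfr at 0.12 and Ddx43 at 0.15. Foxl2os lay at 0.66 from its neighbour Foxl2 and at 0.23 from Foxd1 probe set 2. Foxl2, with its small difference, was nearest to Erg, an ETS factor gene, at 0.04, to Ssh1, a cofilin phosphatase gene, at 0.04, and to D15Ertd492e at 0.06, and the same 3 were nearest without double mutant 1. Erg was 1.31-fold higher in the authors' deposited table, but its log2 difference in the value table was -0.42, while that of Foxl2 was 0.58. Ssh1 and D15Ertd492e had 0.18 and 0.07 there. For Erg, Ssh1 and D15Ertd492e alike the groups overlapped in the value table.

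**Figure D4:**
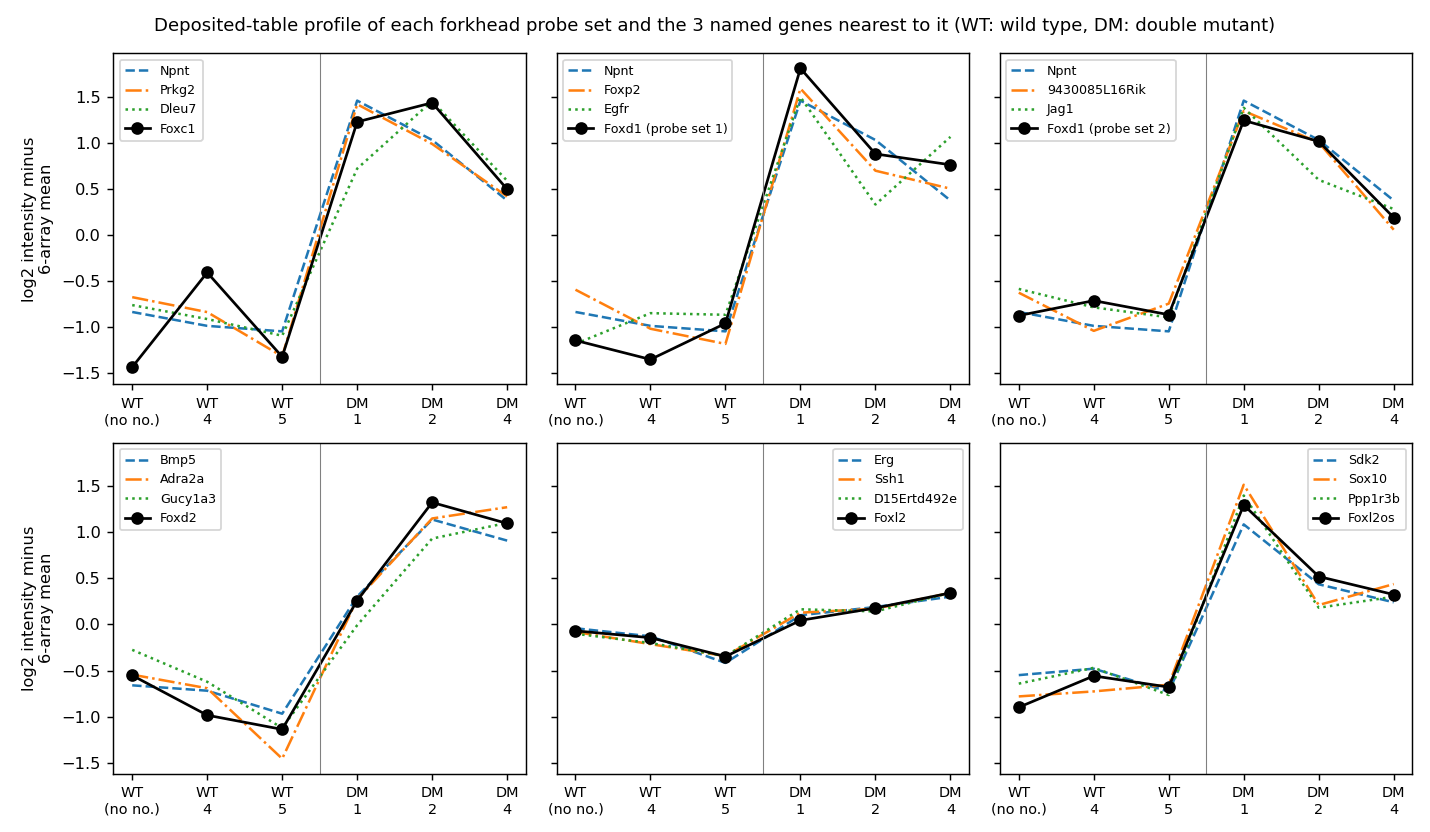
Log2 intensity in the deposited table minus the mean over the 6 arrays, for each forkhead probe set (black) and its 3 nearest named genes, with the arrays along the axis in an order that has no meaning and the wild-type array without a sample number first. Foxd1 probe set 1 and Foxl2os peak on double mutant 1, Foxd2 on double mutant 2, and Foxl2 varies over the narrowest range.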

How the data were processed

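Linear intensities were read from 2 tables. The value table was made by the authors, with RMA the one tool in the submitters' processing notes, although its linear values hold zeros, so the method remains unknown. The deposited significance table gives linear intensities, the p-value of an unpaired uncorrected test and an absolute fold ratio, selected at 0.05 and 1.25, per the file headers. Its folds equal those recomputed from log2 intensities to within 1.63e-06. Its 6 columns of normalised values were not used. The number of 1 wild-type column there is in no sample title, so that column entered its group unnumbered.

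Before log2, 16 was added to the value table's intensities because of the zeros, which understates changes of dim probe sets. Probe sets over 100 in either group (14446) were fitted with limma 3.58.1 in R 4.3.3, group alone, with Benjamini-Hochberg adjustment. The fit had been tried on simulated data with equal noise on all arrays, a setting without an outlying array. The remaining steps used Python 3.11.15, pandas 2.3.3, numpy 2.4.6 and matplotlib 3.10.9. Members, lists and the naming rule (members, listed Fox, Hedgehog, periocular and marker genes, 3 nearest genes) were chosen with earlier results of these data known. Names came from the significance table alone, in which 118 probe sets had no symbol and 15 several. An exact permutation test of 3 against 3 cannot give p under 0.1, so none was used. Alternatives were the constant, scaling, filters, array weights, a robust prior, the replicate number as a block and leaving out each array. Counts, marker sums and nearest genes without double mutant 1, and the mesenchyme sum without Lhx8, were added after the data were seen. Precision is limited by the number of arrays.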

Additional observations from a re-analysis of the deposited data

How the results depend on the processing

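In all 114 recomputed log2 differences of the 6 probe sets, over both tables, the double mutants were higher. The groups did not overlap in either table, so leaving out an array, weighting arrays or changing the constant could not turn this direction. Of the 114 differences, 12 moved by more than the spread between replicates. Those 12 came from the added constant of 1 or 64, from array weights, or from the change of table. Foxd1 probe set 2 moved most, from 1.14 in the value table to 3.57 with a constant of 1 and 0.39 with 64, since its wild-type values are near 0. Foxl2 went from 0.58 to 1.25 and 0.22. The 6 of 6 separation held after quantile normalization and a common median. The count of probe sets past an adjusted p of 0.05 by limma was 0 and stayed 0 with either constant, either scaling, no filter, a filter at 200 and a robust prior. With array weights it was 1619 of 14446, including the 4 tested members. Leaving out 1 array gave 0 to 9, with 9 without double mutant 1 and 2 without double mutant 4; the cause was not tested. With the replicate number as a block it was 2, with 0 members. Nothing in the labels says that a number marks a shared litter or day, so the numbers were not taken to pair the embryos. The deviations of same-numbered arrays from their group means correlated at 0.065 and -0.079 across probe sets. The double-mutant mean includes the outlying array labelled double mutant 1, so these correlations cannot decide on pairing.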
